A study of Mus musculus with 26 samples.

Results

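The interferon-inducible GTPases Igtp, Irgm1, Irgm2 and Iigp1 of the Irg family and Gbp2, Gbp3, Gbp6 and Gbp7 of the Gbp family were followed through 5 experiments on degenerating mouse retina. These 8 genes, chosen by name, were taken from the 37991 genes of the count table by their Ensembl identifiers, and each symbol had its identifier with the highest mean count. Irg and Gbp proteins are made when interferons, interferon gamma above all, reach a cell. Igtp, Irgm1 and Irgm2 are regulators that sit on the cell's own membranes and hold other Irg proteins inactive there, whereas Iigp1 is an effector that loads onto vacuoles holding parasites. Gbp proteins coat such vacuoles and bacteria and promote inflammasome activation. In the retina, microglia and Müller glia are known to respond to interferon during degeneration.

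All mice carried the rd10 mutation of Pde6b (B6.CXB1-Pde6brd10/Jrd10), which kills rods, and were injected from PN9 to PN24 (postnatal days). Whole retinas came from 4 saline controls and 2 mice given DZNep (which blocks S-adenosylhomocysteine hydrolase and lowers EZH2, the methyltransferase of histone H3 lysine 27), from 3 controls and 3 mice given UNC1999 (an inhibitor of EZH2), from 2 controls and 2 mice given UNC0642 (an inhibitor of histone H3 lysine 9 methylation), and from 3 controls and 3 mice given Romidepsin (an inhibitor of histone deacetylases). Rods were sorted from rd10 mice crossed with B6.Cg-Tg(Nrl-EGFP)1Asw/J, in which the Nrl promoter drives EGFP in rods, 2 samples after saline and 2 after GSK2879552 (GSK), which inhibits the histone demethylase LSD1. The labels call the samples biological replicates, their number limits every test, and the genotype is shared by treated and control mice. UNC1999 was dissolved in a mixture with DMSO, polyethylene glycol and Tween, whereas the control retinas sequenced beside it are described as given saline, so the compound and its diluent cannot be told apart.

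Between 13732959 and 36354094 reads were counted on genes per retina library and between 7289460 and 19864491 per library of sorted rods. Levels are given as CPM, the counts of a gene scaled to the depth of its library with the TMM factors of the experiment, and 3 counts, taken as the floor, correspond to 0.0875 to 0.401 CPM, which covers counting error only. The rod markers summed to 8623 to 65805 CPM in the retinas and 47041 to 75170 CPM in sorted rods. The 14 microglia markers summed to 151 to 883 CPM in the retinas and 64.6 to 78.2 CPM in sorted rods, of which 1 or 2 markers per library were at 0 (Trem2, Ptprc, Siglech or Tmem119).

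Promoter sequences are shown first because transcription of these genes is known to be driven through 2 kinds of DNA element: the interferon-stimulated response element (ISRE), bound by factors of the IRF family, and the gamma-activated site (GAS). RefSeq windows of 300 bases, which end shortly after the start of transcription (GRCm38.p6), were searched for 6 of the 8 genes. No window was searched for Gbp6 or Iigp1, so the counts of motifs below leave these genes out. The core letters GAAA NN GAAA (ISRE) and TTCNNNGAA (GAS) were searched on both strands, matches could overlap, and every match is in capitals. The first window of Gbp3 is shown, as its second window held neither motif. The sequences, 5′ to 3′ along the gene, were taken from chr11:58199306-58199605 (Igtp, plus strand), chr11:48871371-48871670 (Irgm1, minus strand), chr11:58214727-58215026 (Irgm2, plus strand), chr3:142620413-142620712 (Gbp2, plus strand), chr3:142559794-142560093 (Gbp3, plus strand) and chr3:142530086-142530385 (Gbp7, plus strand).
Igtp: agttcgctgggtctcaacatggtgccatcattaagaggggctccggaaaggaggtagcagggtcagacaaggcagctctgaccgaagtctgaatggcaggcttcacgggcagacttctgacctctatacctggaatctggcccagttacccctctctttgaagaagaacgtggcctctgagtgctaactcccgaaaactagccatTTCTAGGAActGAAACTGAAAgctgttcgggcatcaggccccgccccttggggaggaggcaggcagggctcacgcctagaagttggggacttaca
Irgm1: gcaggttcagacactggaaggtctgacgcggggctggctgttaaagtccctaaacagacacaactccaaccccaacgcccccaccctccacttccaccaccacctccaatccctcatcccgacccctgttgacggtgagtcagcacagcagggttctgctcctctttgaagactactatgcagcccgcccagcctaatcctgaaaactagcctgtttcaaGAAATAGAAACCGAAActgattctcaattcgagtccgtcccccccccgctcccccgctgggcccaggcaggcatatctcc
Irgm2: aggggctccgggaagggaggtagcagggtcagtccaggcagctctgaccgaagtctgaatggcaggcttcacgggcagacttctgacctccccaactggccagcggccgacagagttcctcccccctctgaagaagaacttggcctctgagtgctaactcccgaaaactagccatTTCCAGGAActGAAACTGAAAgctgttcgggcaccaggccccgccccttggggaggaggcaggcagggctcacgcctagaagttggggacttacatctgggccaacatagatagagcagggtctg
Gbp2: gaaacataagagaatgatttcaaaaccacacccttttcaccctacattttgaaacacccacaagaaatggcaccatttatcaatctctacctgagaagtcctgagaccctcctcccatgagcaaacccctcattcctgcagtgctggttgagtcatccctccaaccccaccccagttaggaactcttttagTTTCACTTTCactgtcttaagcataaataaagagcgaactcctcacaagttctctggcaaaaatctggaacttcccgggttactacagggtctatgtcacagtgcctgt
Gbp3: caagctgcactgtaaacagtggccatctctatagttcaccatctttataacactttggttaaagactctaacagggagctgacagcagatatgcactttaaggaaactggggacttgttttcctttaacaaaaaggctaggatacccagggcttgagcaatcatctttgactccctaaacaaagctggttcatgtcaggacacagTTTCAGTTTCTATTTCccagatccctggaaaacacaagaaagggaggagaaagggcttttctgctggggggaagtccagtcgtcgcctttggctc
Gbp7: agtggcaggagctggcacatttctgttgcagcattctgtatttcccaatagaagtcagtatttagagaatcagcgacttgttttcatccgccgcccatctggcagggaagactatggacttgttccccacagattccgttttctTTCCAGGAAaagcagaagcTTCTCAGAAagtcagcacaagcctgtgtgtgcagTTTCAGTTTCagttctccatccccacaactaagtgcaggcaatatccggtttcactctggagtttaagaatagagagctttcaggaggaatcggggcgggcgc

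An ISRE core was present in the windows of 6 of 6 genes, compared with 3.44% of 32851 windows in the table, and a GAS core in 3 of 6 (Igtp, Irgm2 and Gbp7), compared with 8.3%. Both motifs occurred together in 0.454% of windows. In Igtp the ISRE core GAAACTGAAA lay 34 to 25 bases before the start, just downstream of the GAS core TTCTAGGAA. Irgm2 had the same ISRE letters 64 to 55 bases before its start, just downstream of the GAS core TTCCAGGAA, and the windows of these neighbouring genes shared a run of 61 bases. In Irgm1, 2 overlapping ISRE cores, GAAATAGAAA and GAAACCGAAA, lay between 30 and 15 bases before the start. The Gbp genes carried the ISRE core on the opposite strand, as GAAAGTGAAA in Gbp2, as GAAACTGAAA in Gbp7 and as 2 overlapping cores in Gbp3. A match of letters is a description of the window and does not show binding.

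In the files' build (NCBIM37), Igtp (ENSMUSG00000078853) lay on chromosome 11 from 58013058 to 58021093 and Irgm2 (ENSMUSG00000069874) from 58028530 to 58036282 on the same strand. Irgm1 (ENSMUSG00000046879) lay on chromosome 11 from 48675470 to 48685185, and Iigp1 (ENSMUSG00000054072) on chromosome 18 from 60535683 to 60552281. Gbp7 (ENSMUSG00000040253), Gbp3 (ENSMUSG00000028268) and Gbp2 (ENSMUSG00000028270) formed a cluster on chromosome 3, from 142193302 to 142213047, 142223016 to 142236173 and 142283566 to 142300972. Gbp6 (ENSMUSG00000079362) lay on chromosome 5 from 105699723 to 105722718, in another cluster. No annotated gene overlapped any of the 8. Of the 50-base windows in the Gbp6 coding transcripts, 80.0% also occurred in Gbp4, Gbp8, Gbp9, Gbp10 or Gbp11, so reads could be split among these paralogs and the Gbp6 values are uncertain. The share was 9.64% for Igtp (with Irgm2), 6.83% for Irgm2 and at most 3.92% for the other genes.

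The 8 genes differed widely between control retinas. The ranges below pool the controls of all retina experiments, so they hold differences between experiments as well as between retinas. Within experiments, Igtp had 53.9 and 91.7 CPM in the UNC0642 controls and 13.6 to 69.6 CPM in the Romidepsin controls. Over the 12 control retinas, Igtp, a regulator of endoplasmic reticulum and lipid droplet membranes, had a lowest level of 10.0, a median of 25.8 and a highest of 91.7 CPM. Irgm1, a regulator tied to autophagy, ran from 12.4 through a median of 34.0 to 134 CPM. Iigp1, the effector, had the widest range, from 1.00 through 9.13 to 49.1 CPM, a ratio of 49.1 between the highest and lowest retina. The corresponding ratio was 10.8 for Irgm1, 9.24 for Irgm2, 9.13 for Igtp, 9.04 for Gbp2, 8.59 for Gbp6, 7.61 for Gbp3 and 4.75 for Gbp7, compared with a median of 1.52 over 14911 genes with a mean of at least 1 CPM. The highest control means of all 8 genes were in the UNC0642 experiment, whose 2 controls summed to 380 and 664 CPM over the 8 genes, and the lowest control sum, 77.7 CPM, was in the DZNep experiment. Low control retinas occurred in more than 1 experiment, as the Romidepsin experiment had 1 control at 106 and 2 at 311 and 511 CPM.

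**Figure D1:**
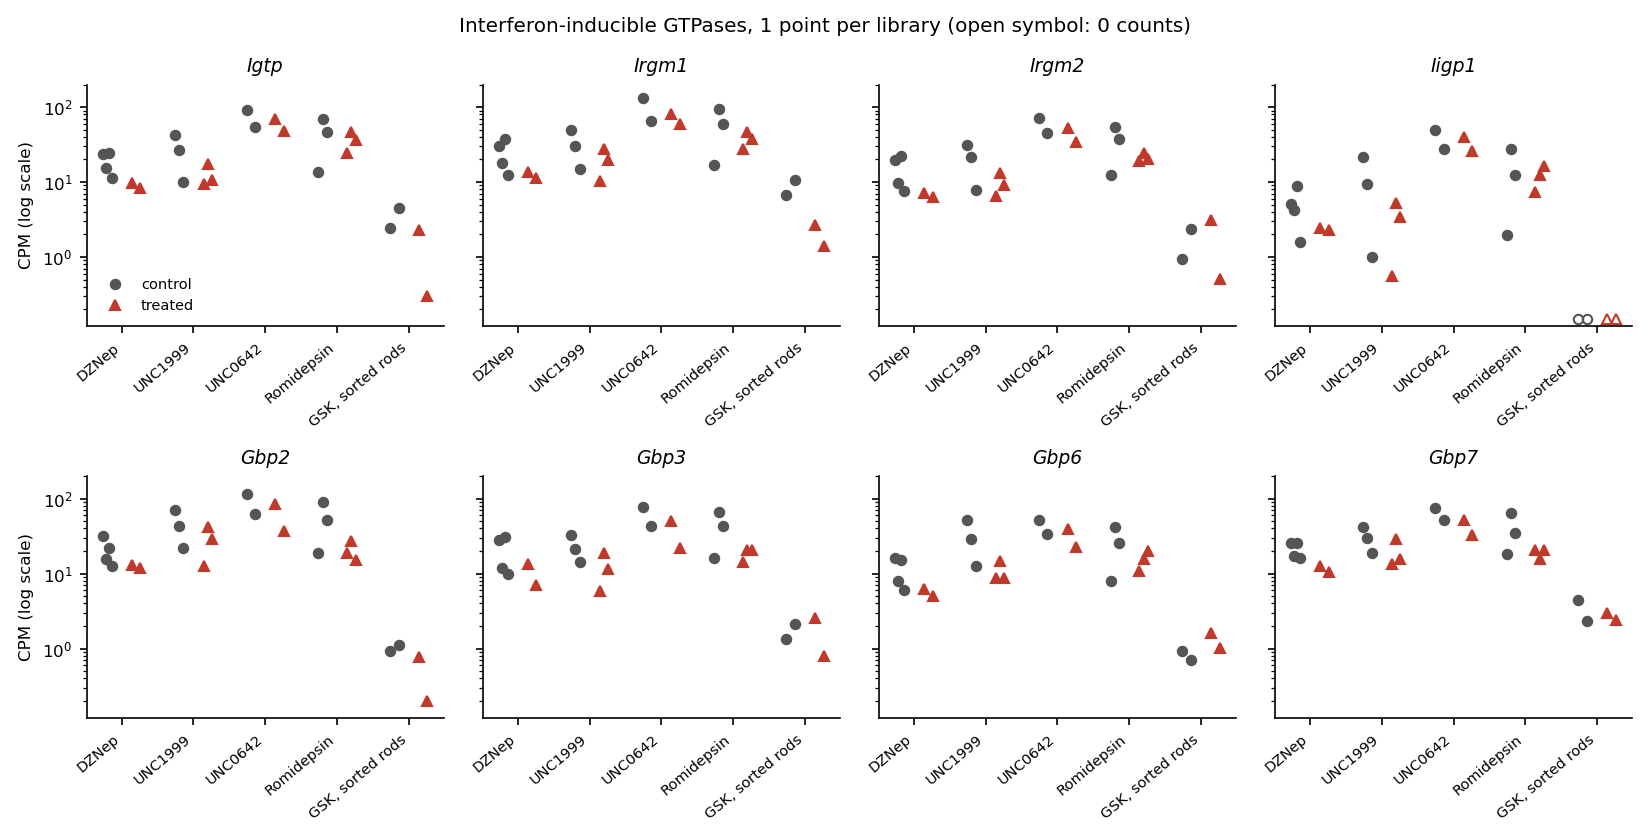
Level of each of the 8 GTPases in CPM on a log axis, with 1 point per library, control (circles) and treated (triangles), for the 5 experiments. Open symbols mark 0 counts, drawn at the bottom of the axis. The highest single retina was a UNC0642 control for all 8 genes, the levels in sorted rods lay below those of all retinas for 7 of the 8 (for Irgm1, 1 rod control at 10.7 CPM was above the lowest retina at 10.2 CPM), and Iigp1 had 0 counts in all 4 libraries of sorted rods.

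Levels of different genes were compared only per length, as CPM per kilobase of the union of exons. Gbp2 had the highest median over the 12 control retinas, 14.8 CPM per kb, followed by Igtp at 12.7, Gbp3 at 9.06, Irgm2 at 6.29, Irgm1 at 5.85, Gbp7 at 5.01, Gbp6 at 4.83 and Iigp1 at 2.92. Gbp2 was above Igtp in 6 of 12 retinas and Irgm2 above Irgm1 in 7 of 12, so these neighbours in the order did not differ beyond their spread. Igtp exceeded Gbp3 and Gbp3 exceeded Irgm2 in 12 of 12. Gbp7 over Gbp6 and Gbp6 over Iigp1 each held in 10 of 12. The place of Irgm1 depended on the length used, because its exons include a long non-coding transcript. With the length of the longest coding transcript (2259 instead of 5810 bases), a choice made after seeing the data, Irgm1 moved to the top at 15.0 CPM per kb.

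Within groups, the 8 genes rose and fell together from mouse to mouse. After the mean of each of the 8 retina groups had been subtracted from log2 CPM, Pearson's r between pairs of the genes ran from 0.845 to 0.969 with a median of 0.913 over 28 pairs and 22 retinas. These are descriptions across libraries, which share depth and dissection. Irgm1 was closest to the mean of the other 7 (r = 0.982, Spearman's rho 0.970) and Gbp7 farthest (r = 0.920, rho 0.928). Without the 2 retinas farthest from the median (control 3 of the UNC1999 experiment and control 1 of the Romidepsin experiment) the 8 values ran from 0.879 to 0.976. For comparison, the median r of 14952 genes with the mean of the 8 was -0.05.

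The 5 genes outside the set whose pattern was most like that mean were Rsad2 and Ddx58 (r = 0.987 each), Tap1 and Parp9 (0.986 each) and Dtx3l (0.978). Rsad2 encodes the antiviral protein viperin, Ddx58 the RNA sensor RIG-I, Tap1 a peptide transporter of antigen presentation, and Parp9 and Dtx3l partner proteins of the interferon response. Irf1, a transcription factor gene induced by interferon, had r = 0.809 and fell to 0.685 without the 2 farthest retinas. Socs1, which inhibits the JAK kinases, had r = 0.854, and the kinase gene Jak2 r = 0.346. Among marker lists, averaged over their genes, gliosis genes had r = 0.890, microglia 0.780 (0.706 without the 2 farthest retinas), endothelial cells 0.308, blood 0.285, Müller glia -0.21, rods -0.31, bipolar cells -0.56 and retinal pigment epithelium -0.61.

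**Figure D2:**
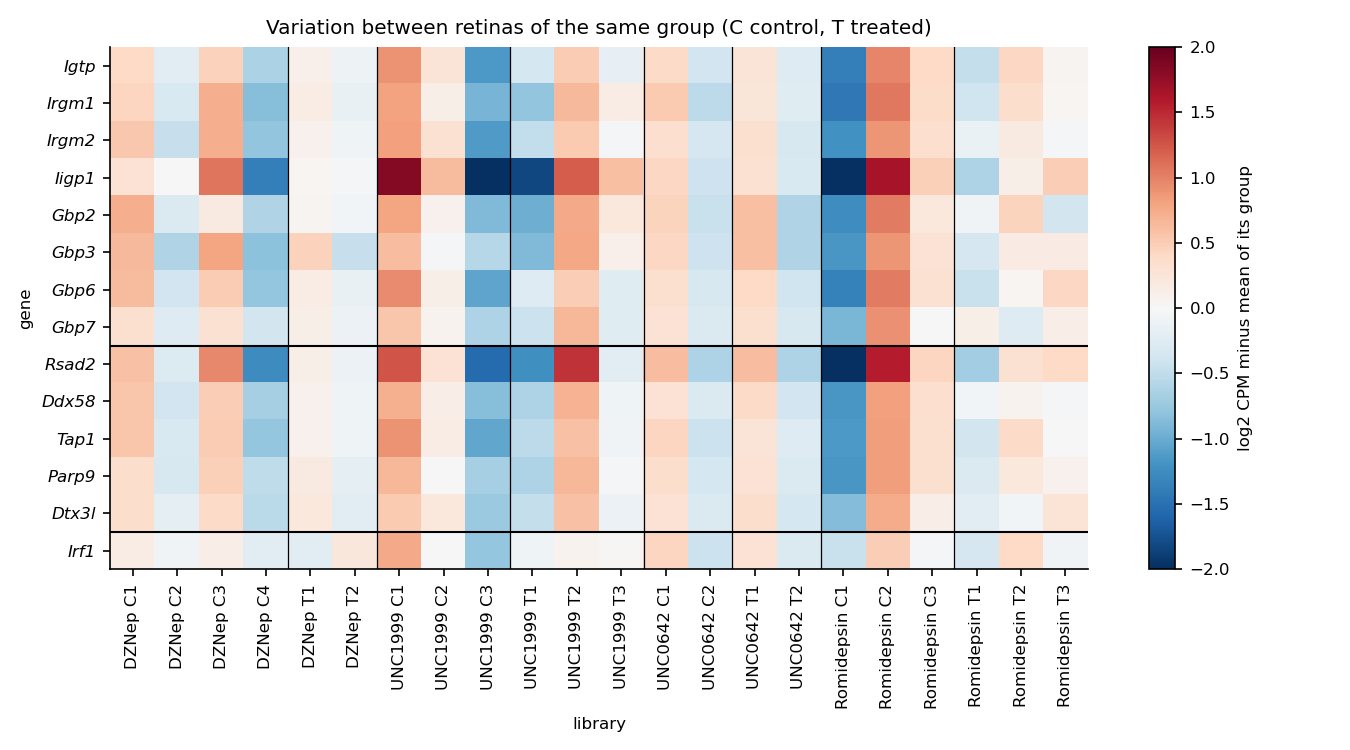
Deviation of log2 CPM from the mean of the library's own group, for the 8 GTPases, the 5 most alike genes and Irf1 (rows) in the 22 retinas (columns, C control and T treated with replicate numbers). Colours end at 2 and -2, and larger deviations, such as those of Iigp1, take the end colour. Columns are mostly of 1 colour: the retinas high for 1 GTPase were mostly high for the others.

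In the DZNep experiment all 8 genes were fitted lower after treatment (50.1% of all genes), and Igtp and Gbp7 passed the test. Every comparison used the quasi-likelihood test of edgeR, p-values were adjusted by Benjamini and Hochberg's method over all genes tested in the experiment, and genes were called at an adjusted p under 0.05. Thus 2 of 8 genes fell, in an experiment where 9.72% of 16477 genes did so, and 5 of 8 had an unadjusted p under 0.05 (17.2% of all genes). With a log2 fold change under -1 required as well, Igtp remained (0.686% of all genes). The median log2 fold change of the 8 was -0.96, compared with a median of about 0 over all genes.

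Among the membrane regulators, Igtp had 23.4, 15.3, 24.6 and 11.4 CPM in the 4 controls and 9.69 and 8.34 CPM after DZNep. Both treated retinas were below every control. Igtp had a control mean of 18.7 ± 6.38 (SD, n = 4) and fell to 9.01 ± 0.955 CPM (SD, n = 2), with a log2 fold change of -1.03 (SE 0.297, 95% interval -1.70 to -0.35, edgeR adjusted p = 0.0374). Irgm2, whose protein is found at the Golgi, had 19.4, 9.66, 22.2 and 7.68 CPM in controls and 7.12 and 6.33 CPM in treated retinas. The groups were also apart, but 2 of the controls were close to the treated level, and the log2 fold change of -1.11 (SE 0.416) had an edgeR adjusted p = 0.0870. Irgm1 had 30.2, 18.2, 37.2 and 12.4 CPM in controls and 13.8 and 11.2 CPM after DZNep, so the groups overlapped (log2 fold change -0.94, SE 0.390, edgeR adjusted p = 0.116).

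The effector Iigp1 was the least abundant of the 8. It had 5.14, 4.19, 8.90 and 1.57 CPM in controls and 2.45 and 2.31 CPM after DZNep, both above the lowest control (log2 fold change -1.04, SE 0.554, edgeR adjusted p = 0.209).

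Of the Gbp genes, Gbp7 had 25.9, 17.2, 25.5 and 15.9 CPM in controls and 12.7 and 10.6 CPM after DZNep. The treated retinas again lay below every control. The mean fell from 21.1 ± 5.27 (SD, n = 4) to 11.7 ± 1.43 CPM (SD, n = 2), with a log2 fold change of -0.84 (SE 0.215, 95% interval -1.32 to -0.35, edgeR adjusted p = 0.0241). Gbp2 (31.9, 15.7, 21.7 and 12.6 against 13.0 and 11.9 CPM), Gbp3 (27.9, 11.7, 30.8 and 10.0 against 13.4 and 7.00 CPM) and Gbp6 (16.3, 8.05, 15.0 and 6.12 against 6.27 and 5.06 CPM) had overlapping groups. Their log2 fold changes were -0.70, -0.90 and -0.97, with edgeR adjusted p from 0.102 to 0.207. Groups were thus apart for 3 of the 8 genes (Igtp, Irgm2 and Gbp7), compared with 21.5% of all genes apart in the same direction. The 8 genes varied together from mouse to mouse, so this count does not weigh as 8 separate results.

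The number of calls depended on single libraries. Without control 4, the lowest control, 7 of the 8 were called (all but Gbp3; 7.23% of all genes), without control 2 only Gbp7 (5.22%), and without control 3 or either treated retina none (1.67% to 6.34%). Where 1 treated retina remained, it is assumed to vary like the other group. The 14 microglia markers summed to 233 to 442 CPM in controls and 198 to 214 CPM after DZNep, with 13 of 14 fitted lower and Ptprc called, and none at 0. In bulk retina, fewer cells of a type and less RNA per cell cannot be told apart. Of the 14 T and NK cell markers, 1 to 5 were at 0 in controls and 11 in each treated retina, with sums of 3.6 to 5.7 and 2.5 to 3.0 CPM. Gliosis genes were lower, 776 to 806 against 839 to 1370 CPM, as were markers of Müller glia, 6548 to 7399 against 9434 to 9734 CPM, of endothelial cells, 588 to 608 against 736 to 788 CPM, and of bipolar cells, 1918 to 1979 against 2173 to 2356 CPM. Blood markers overlapped. Rod markers were higher, 54362 to 55748 against 17612 to 29586 CPM, as were markers of retinal pigment epithelium, 193 to 276 against 55.2 to 155 CPM. The part of these shifts in the GTPase values was not tested.

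**Figure D3:**
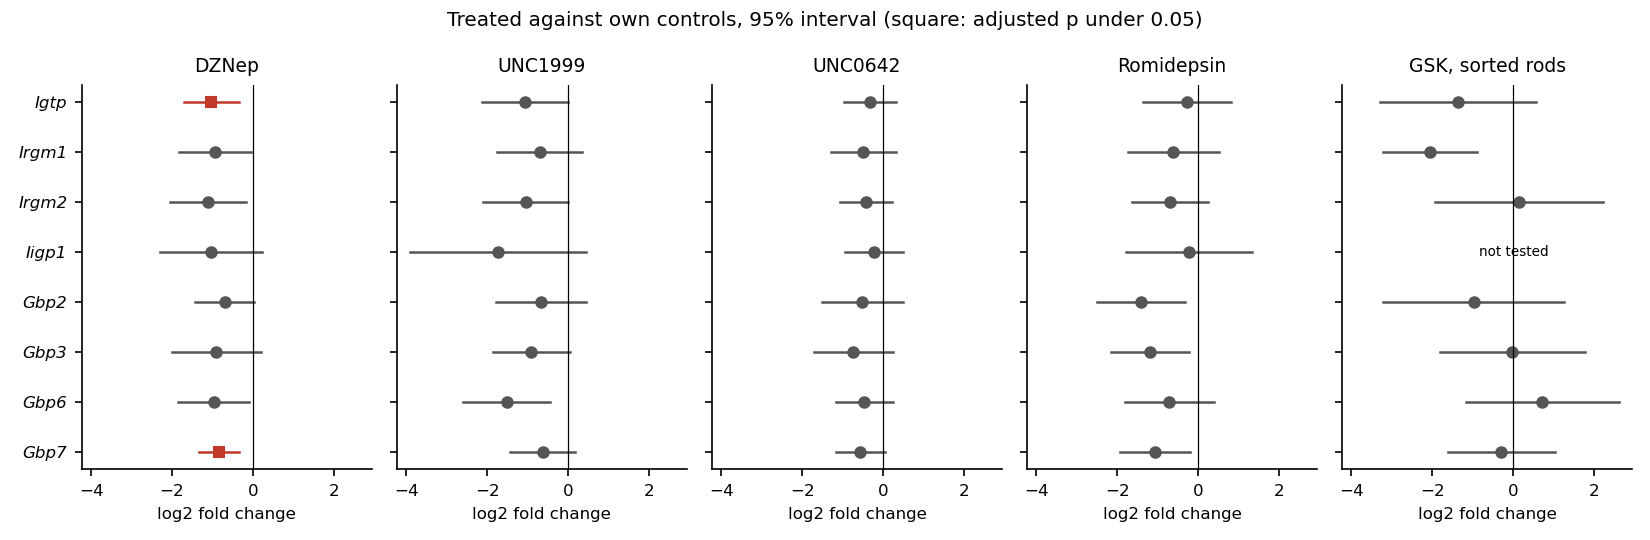
Log2 fold change of each GTPase (points) with its 95% interval (lines) for treated against own control libraries in the 5 experiments. Red squares mark the adjusted p under 0.05, reached by Igtp and Gbp7 after DZNep. All 8 points lie left of 0 in each of the 4 retina experiments, with intervals that mostly cross 0 outside DZNep.

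With UNC1999 all 8 genes were also fitted lower (50.4% of all genes), with a median log2 fold change of -0.98, but 0 of 8 passed edgeR's quasi-likelihood test, in an experiment where 0.101% of 15775 genes were called lower. At an unadjusted p under 0.05 there was 1 (Gbp6), against 11.9% of all genes, the likelihood ratio test called Gbp6 (5.08% of all genes were called lower by it) and DESeq2 called 0 (4.43%).

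Gbp6 had 51.0, 28.7 and 12.6 CPM in controls and 8.63, 14.6 and 8.72 CPM after UNC1999. A single treated retina exceeded the lowest control. The means were 30.8 ± 19.3 and 10.7 ± 3.45 CPM (SD, n = 3 each), and its log2 fold change was -1.52 (SE 0.461, edgeR adjusted p = 0.104). Over its alternatives the adjusted p of Gbp6 ran from 0.00568 to 0.285.

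Igtp had 41.9, 26.9 and 10.0 CPM in controls and 9.44, 17.3 and 10.8 CPM after UNC1999 (log2 fold change -1.06, SE 0.461, edgeR adjusted p = 0.213). Irgm2 was nearly the same at -1.05, from 31.0, 21.5 and 7.90 to 6.52, 13.3 and 9.07 CPM. Irgm1 went from 49.7, 30.7 and 14.9 to 10.2, 27.9 and 19.8 CPM, a log2 fold change of -0.70. In each regulator, control 3 lay within the treated range. The effector Iigp1 spanned 21.6, 9.35 and 1.00 CPM in controls and 0.559, 5.28 and 3.40 CPM in treated retinas, and its log2 fold change of -1.73 had the largest SE of the experiment, 0.937.

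Gbp2 (69.9, 42.8 and 21.8 against 12.6, 42.4 and 29.1 CPM), Gbp3 (33.2, 21.0 and 14.4 against 5.84, 18.7 and 11.7 CPM) and Gbp7 (41.7, 29.8 and 18.6 against 13.5, 28.9 and 15.5 CPM) had log2 fold changes of -0.66, -0.91 and -0.63, with edgeR adjusted p from 0.234 to 0.443. For 0 of the 8 genes were the groups apart, whereas 13.6% of all genes were apart in the lower direction. Control 3 decided the outcome: without it Igtp, Irgm2, Iigp1 and Gbp6 were called, together with 8.50% of all genes. Microglia markers were apart, 243 to 393 CPM in controls and 151 to 189 CPM after UNC1999, with 13 of 14 fitted lower, 0 called and none at 0. Rod markers were higher, 48326 to 65805 against 18914 to 35697 CPM, as were markers of retinal pigment epithelium, 355 to 410 against 106 to 128 CPM. Of the T and NK cell markers, 0 to 4 were at 0 in controls and 9 or 10 in treated retinas. The endothelial sum was lower, 377 to 469 against 536 to 601 CPM, with 6 of 10 markers fitted lower (median log2 fold change -0.08). The sums of gliosis, Müller glia, bipolar cell, blood and T and NK cell genes overlapped. Whether these shifts play a part in the GTPase values was not tested.

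The UNC0642 experiment, with 2 retinas a group, had the highest control means of all 8 genes and no call. All were fitted lower (50.3% of all genes) with a median log2 fold change of -0.48. EdgeR's quasi-likelihood test called 0 of 8, and 0% of 16321 genes were called lower in this experiment (2407 genes had an unadjusted p under 0.05, and the likelihood ratio test and DESeq2 called 145 and 152). The count of the 8 at an unadjusted p under 0.05 was also 0 (6.8% of all genes), and neither the likelihood ratio test nor DESeq2 called any of them.

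The regulator Igtp had 91.7 and 53.9 CPM in controls and 68.6 and 47.9 CPM after UNC0642, Irgm1 134 and 64.2 against 82.0 and 59.1 CPM, and Irgm2 71.0 and 45.0 against 52.7 and 33.8 CPM. In each, control 1 was highest and the other control fell between the treated retinas. Iigp1 had 49.1 and 27.8 CPM against 39.6 and 26.1 CPM, with the smallest log2 fold change, -0.23 (SE 0.293). Gbp2 had 114 and 61.6 against 85.2 and 37.2 CPM, Gbp3 76.2 and 42.9 against 49.6 and 21.6 CPM, Gbp6 52.5 and 33.6 against 39.6 and 22.7 CPM, and Gbp7 75.7 and 51.0 against 52.0 and 33.1 CPM.

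Gbp3 had the largest log2 fold change (-0.73, SE 0.403, edgeR adjusted p = 0.413) and Gbp7 the smallest adjusted p, 0.347 (log2 fold change -0.57, SE 0.251). The 95% intervals of the 8 genes reached from -1.71 to 0.48, and all 8 included 0. Groups were apart for 0 of 8 genes, although 25.2% of all genes were apart in that direction. Igtp, Irgm1 and Iigp1 changed direction without control 1, to 0.11, 0.14 and 0.25. Microglia markers summed to 667 to 883 CPM in controls and 431 to 595 CPM after UNC0642, with 14 of 14 fitted lower and none at 0, and gliosis genes, highest here, to 3523 to 5335 CPM over all 4 retinas with overlapping groups. The sum of T and NK cell markers was lower, 3.72 to 5.30 against 6.23 to 10.0 CPM. Müller glia markers, 5467 to 5753 against 7002 to 7894 CPM, and bipolar cell markers, 1695 to 1968 against 2026 to 2055 CPM, were lower. The endothelial sum was lower as well, 749 to 780 against 841 to 942 CPM. Only 4 of 10 endothelial markers were fitted lower, with a median log2 fold change of 0.03. Markers of rods, 8976 to 13546 against 8623 to 8800 CPM, and of retinal pigment epithelium, 148 to 177 against 61.8 to 130.2 CPM, were higher, and blood markers overlapped. Their relation to the GTPase levels was not tested.

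After Romidepsin the Gbp genes had larger log2 fold changes than the Irg genes, with medians of -1.13 and -0.45, and all 8 were fitted lower (51.1% of all genes), but 0 of 8 passed edgeR's quasi-likelihood test, where 0.174% of 16049 genes were called lower. At an unadjusted p under 0.05 there were 3 (Gbp2, Gbp3 and Gbp7; 9.46% of all genes). The likelihood ratio test called Gbp2 (3.29% of all genes were called lower by it) and DESeq2 called Gbp7 (3.04%). The difference between the families was not tested.

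Gbp2 had 18.7, 91.4 and 51.6 CPM in controls and 18.7, 27.0 and 15.3 CPM after Romidepsin, a log2 fold change of -1.41 (SE 0.479, edgeR adjusted p = 0.156). Gbp3 had 15.9, 65.6 and 43.6 CPM in controls and 14.3, 20.4 and 20.3 CPM after treatment, a log2 fold change of -1.19 (SE 0.421, edgeR adjusted p = 0.172). Gbp7 went from 18.3, 64.7 and 34.6 CPM to 20.3, 15.6 and 20.5 CPM, a log2 fold change of -1.06 (SE 0.382, edgeR adjusted p = 0.177). In all of these the treated retinas lay below controls 2 and 3, while control 1 was within their range. Gbp6 had 8.01, 42.2 and 25.3 CPM in controls and 10.9, 15.4 and 19.9 CPM after treatment, and its lowest library was a control (log2 fold change -0.71, SE 0.488).

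Among the regulators, Irgm2 had 12.6, 53.8 and 37.0 CPM against 19.3, 24.2 and 20.6 CPM (log2 fold change -0.70) and Irgm1 17.0, 95.4 and 59.4 CPM against 27.7, 46.8 and 37.8 CPM (log2 fold change -0.62). Igtp had 13.6, 69.6 and 46.6 CPM against 24.8, 46.2 and 35.95 CPM (log2 fold change -0.28), and the effector Iigp1 1.99, 28.0 and 12.4 CPM against 7.47, 12.5 and 16.3 CPM (log2 fold change -0.23). For these 4, control 1 was the lowest of the 6 retinas. No groups were apart (0 of 8, against 12.5% of all genes in the lower direction). Without control 1 Gbp2 and Gbp3 were called (0.366% of all genes), and without control 2, the highest, Igtp and Iigp1 turned to 0.24 and 0.74. Microglia markers overlapped, 428 to 709 CPM in controls and 384 to 550 CPM after treatment, with 13 of 14 fitted lower and none at 0. The sums of gliosis genes and rod markers overlapped as well. Of their genes, 1 of 7 and 0 of 10 were fitted lower, with median log2 fold changes of 0.43 and 0.47, and none were called. Lower after Romidepsin was the sum of T and NK cell markers, 3.73 to 5.13 against 5.68 to 7.91 CPM. Müller glia markers, 6244 to 7213 against 8905 to 10733 CPM, and bipolar cell markers, 1563 to 1802 against 2231 to 2388 CPM, were lower. So were markers of retinal pigment epithelium, 47.1 to 61.1 against 80.7 to 94.2 CPM, and blood, 42.3 to 70.7 against 86.1 to 89.96 CPM. The endothelial sum was lower as well, 652 to 670.0 against 775 to 975 CPM. Only 4 of 10 endothelial markers were fitted lower, with a median log2 fold change of 0.08. Their part in the GTPase values was not tested.

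Whether treatments differed from one another in their effect on a gene was tested by the contrast of their changes in 1 fit of the 22 retinas, for 6 pairs of treatments and 17274 genes, with adjustment over all of them. Of the 48 values of the 8 genes, 0 passed edgeR's quasi-likelihood test, 0 had an unadjusted p under 0.05 and 0 passed the likelihood ratio test. The smallest unadjusted p was 0.201 and the smallest adjusted p 0.599. Between DZNep and UNC1999, the difference of log2 fold changes (DZNep minus UNC1999) had a median of -0.03, with 95% intervals that reached from -2.05 to 3.43. This width leaves room for differences of several fold, so the treatments were not shown to act alike. The compounds were given in different experiments.

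In rods sorted from GSK-treated mice and their controls, the 8 genes ranged from 0 to 183 counts per library. Together they summed to 17.8 and 23.9 CPM in controls and 6.66 and 16.0 CPM after GSK. These libraries were made with another kit, so their levels stand beside those of the retinas without a test. Iigp1 had 0 counts in all 4 libraries, which allows up to 0.156 to 0.401 CPM, and was not tested.

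Irgm1 was the only one of the 8 above 50 counts in more than 2 of the rod libraries, with 51 and 183 counts in controls and 52 and 14 after GSK. Scaled to depth these were 6.82 and 10.7 CPM against 2.70 and 1.41 CPM. Both treated libraries lay below both controls, and the mean went from 8.77 ± 2.75 to 2.06 ± 0.913 CPM (SD, n = 2 each). The log2 fold change was -2.06 (SE 0.511, 95% interval -3.23 to -0.90) with an unadjusted p of 0.00318 from edgeR's fit and an adjusted p = 0.687.

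EdgeR's quasi-likelihood test thus called 0 of the 7 genes tested, where 0% of 14478 genes were called lower (711 genes had an unadjusted p under 0.05, and the likelihood ratio test and DESeq2 called 71 and 43), and Irgm1 was the 1 gene of the 7 at an unadjusted p under 0.05 (2.13% of all genes). Of the 7, 5 were fitted lower (51.2%). The likelihood ratio test called Irgm1 (adjusted p = 0.0409; 0.173% of all genes were called lower by it), and DESeq2 did not (adjusted p = 0.122). Over all its alternatives the adjusted p of Irgm1 ran from 0.0108 to 0.993.

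Igtp had 2.41 and 4.57 CPM in controls and 2.29 and 0.303 CPM after GSK, the last at 3 counts (log2 fold change -1.37, SE 0.850, edgeR adjusted p = 0.987). Irgm2 had 0.936 and 2.34 CPM against 3.12 and 0.505 CPM, with the treated libraries on either side of the controls. Gbp2 (0.936 and 1.11 against 0.780 and 0.202 CPM), Gbp3 (1.34 and 2.11 against 2.55 and 0.807 CPM), Gbp6 (0.936 and 0.703 against 1.61 and 1.01 CPM) and Gbp7 (4.41 and 2.34 against 2.96 and 2.42 CPM) had log2 fold changes from -0.97 to 0.71. Groups were apart with treated lower for Igtp, Irgm1 and Gbp2 (17.3% of all genes) and with treated higher for Gbp6 (15.9%). Microglia markers overlapped, 64.6 to 78.2 CPM in controls and 66.8 to 70.0 CPM after GSK, with 7 of 9 tested fitted lower. Gliosis genes summed to 160 to 228 CPM in controls and 80.2 to 90.4 CPM after GSK. Most of this sum in controls was Edn2, which went from a mean of 132 to 22.9 CPM. Of the 7 gliosis genes 5 were fitted lower, whereas Cp (35.3 and 42.9 CPM) and Lcn2 (8.55 and 8.72 CPM) were not. Müller glia markers summed to 278 to 409 CPM in controls and 458 to 490 CPM after GSK. Endothelial markers were higher after GSK, 68.4 to 72.2 against 49.5 to 55.0 CPM, and bipolar cell markers lower, 889 to 942 against 1009 to 1255 CPM, while the other marker sums overlapped. Their part in the Irgm1 values was not tested.

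The rest of the interferon pathway was described from 8 lists with 116 genes, of which 112 were in the table. After DZNep 94 were tested, of which 9 were called lower and 5 higher, where 9.72% of all genes were called lower and 12.9% higher. In the UNC1999, UNC0642 and rod experiments 0 of 93, 101 and 69 were called by edgeR's quasi-likelihood test. After Romidepsin 1 of 97 was called (0.573% of all genes were called higher), the inhibitor gene Socs3, which had a mean of 22.5 ± 10.2 CPM in controls and rose to 156 ± 73.4 CPM (SD, n = 3 each; log2 fold change 2.79, SE 0.437, edgeR adjusted p = 0.0354).

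The other Irg and Gbp family GTPases, listed with the related Mx1, Mx2 and Gvin1, were low in most retinas except for Irgq. After DZNep 11 of 16 were tested, 10 were fitted lower and Gbp8 was called (0.638 ± 0.302 and 0.126 ± 0.137 CPM, SD, with at most 20 counts in a library; log2 fold change -2.77, SE 0.815, edgeR adjusted p = 0.0398). The log2 fold changes of Ifi47, Tgtp2, Gm12250, Gbp4, Gbp5, Gbp9, Gbp10, Mx1 and Mx2 ran from -1.49 (Ifi47) to -0.22 (Gbp5). Irgq, a relative not known to be induced by interferon, ran from 74.7 to 104 CPM over the 22 retinas (log2 fold change 0.12 after DZNep). Medians of this list were -0.92 after DZNep, -1.09 after UNC1999 (11 tested, with Tgtp1 at -1.58 in place of Gbp8), -0.87 after UNC0642 (13 tested, with Tgtp1, Gbp8 and Gbp11) and -0.86 after Romidepsin (12 tested). In sorted rods Irgq and Gbp9 were the 2 tested, at 0.55 and -0.65.

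The interferon genes themselves were close to absent from the reads. Ifng had 5 counts in all 26 libraries together, Ifna4 5 and Ifnb1 28, and Ifng was at 0 in 18 of 22 retinas. Of 9 interferon, receptor and kinase genes tested after DZNep, the type I receptor gene Ifnar2 fell (log2 fold change -0.46, edgeR adjusted p = 0.0227) and Jak2 rose (0.21, adjusted p = 0.0437). The list's median was 0.04, and in the other experiments it lay between -0.22 and 0.07. Jak2 had log2 fold changes of 0.07, -0.11, 0.28 and -0.26 after UNC1999, UNC0642, Romidepsin and GSK.

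Among 12 transcription factor genes tested after DZNep (median -0.58), Irf3 was called, and rose (0.24, edgeR adjusted p = 0.0367). Irf1 had log2 fold changes of -0.39 (DZNep), -0.45 (UNC1999), 0.12 (UNC0642), 0.60 (Romidepsin) and -0.26 (rods), none called. List medians were -0.55, -0.28, 0.02 and -0.28 after UNC1999, UNC0642, Romidepsin and GSK.

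Of 8 negative regulators, the DZNep experiment called Pias1 (0.32, edgeR adjusted p = 0.00617) and Ptpn2 (0.26, adjusted p = 0.0448) higher. Socs1 had log2 fold changes of -0.49, -0.85, 0.31 and 0.86 after DZNep, UNC1999, UNC0642 and Romidepsin, none called, and at most 5 counts in sorted rods. List medians ran from -0.37 to 0.26 over the 5 experiments.

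For other genes induced by interferon gamma, 9 of 11 tested were fitted lower after DZNep (median -0.57), and B2m (-1.35, edgeR adjusted p = 0.0214) and Tap2 (-0.57, adjusted p = 0.00740), both needed for antigen presentation, were called. For genes induced by type I interferon, 23 of 23 tested were fitted lower after DZNep (median -0.77), after UNC1999 (-0.96) and after UNC0642 (-0.76), and 22 of 23 after Romidepsin (-0.97). Dtx3l (-0.94, adjusted p = 0.0334) and the nucleotide kinase gene Cmpk2 (-0.55, adjusted p = 0.0465) were called, both after DZNep. In sorted rods the median was -1.21, with 11 of 14 tested apart in the lower direction (17.3% of all genes). Fitted lower at an unadjusted p under 0.05 from edgeR's fit were 5 (2.13% of all genes). These were Ifit1, Oasl2, Ddx58, Cmpk2 and Rtp4, a choice of names made with the results in view, and none was called.

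The list of 15 autophagy-related genes held conjugation genes, which help to place Irg and Gbp proteins on membranes, and others. Of the 15, Gabarap fell (-0.20, edgeR adjusted p = 0.0422) and Atg12 rose (0.18, adjusted p = 0.0337) after DZNep. Medians of this list lay between -0.22 and 0.09 in the 5 experiments. Of 6 inflammasome genes tested after DZNep, the protease gene Casp1 (-2.67, adjusted p = 0.00424) and its substrate Gsdmd (2.39 ± 0.536 CPM, n = 4, against 1.16 ± 0.171 CPM, n = 2, SD, edgeR adjusted p = 0.0291) fell. Medians of the inflammasome list were -0.31, -0.84, -0.31, -0.18 and -0.14 after DZNep, UNC1999, UNC0642, Romidepsin and GSK.

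**Figure D4:**
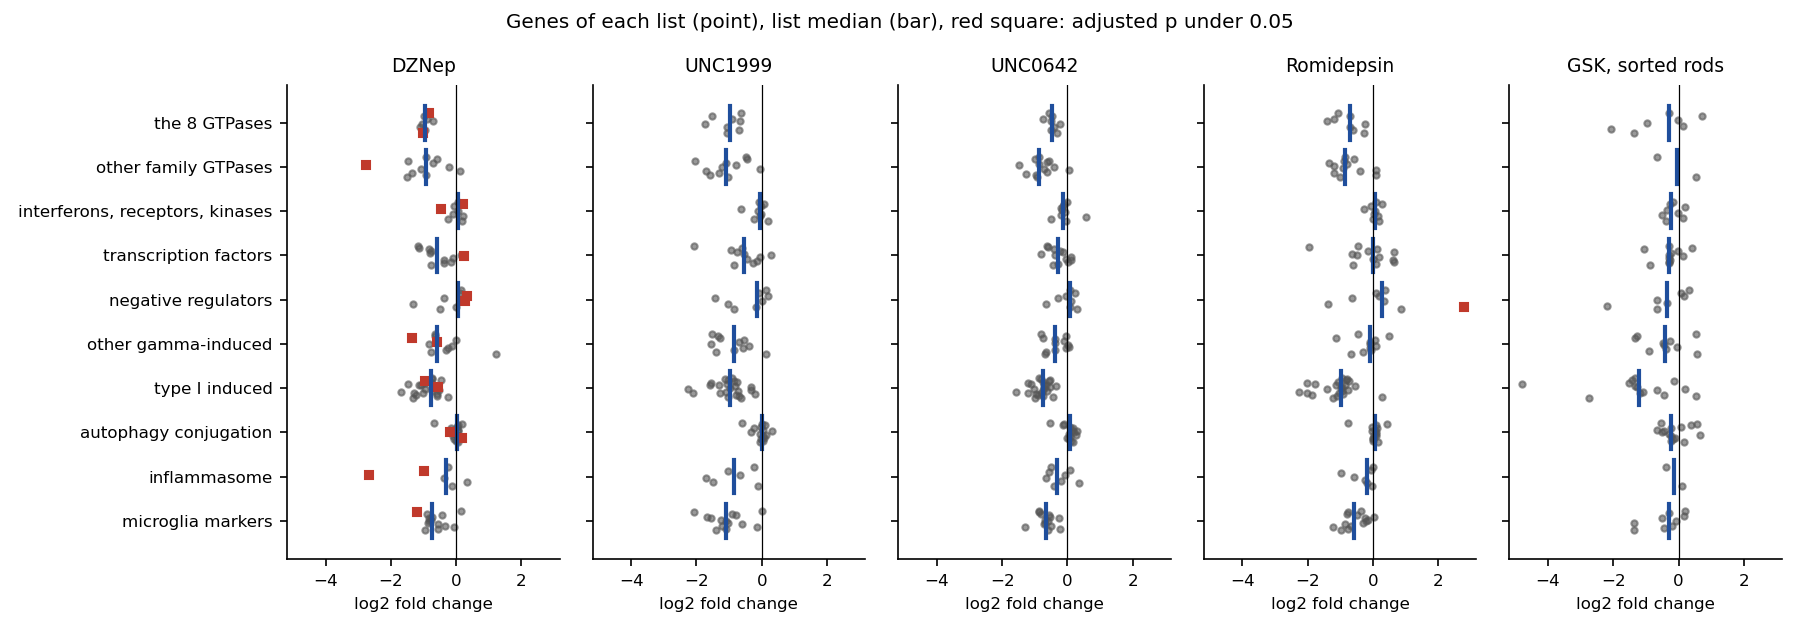
Log2 fold change of every tested gene of the 8 GTPases, the 8 pathway lists and the microglia markers (points) with the median of each list (blue bars) in the 5 experiments. Red squares mark an adjusted p under 0.05. In the retina experiments the bars of the 8 GTPases, the other family GTPases and the type I induced genes lie between -1.09 and -0.48. Those of the microglia markers lie in a similar range, between -1.10 and -0.58. The bars of autophagy genes and of interferons and receptors lie between -0.12 and 0.09.

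The level of the 8 GTPases and that of the microglia markers are set side by side for every library. The 8 genes summed to 62.8 to 664 CPM in the retinas. The highest single value of both sums was in control 1 of the UNC0642 experiment, and in sorted rods both were lowest. Retinas treated with UNC1999 had the lowest microglia sums of the 22 retinas with GTPase sums of 67.4 to 168 CPM, whereas control 1 of the Romidepsin experiment had a GTPase sum of 106 CPM with a microglia sum of 428 CPM.

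**Figure D5:**
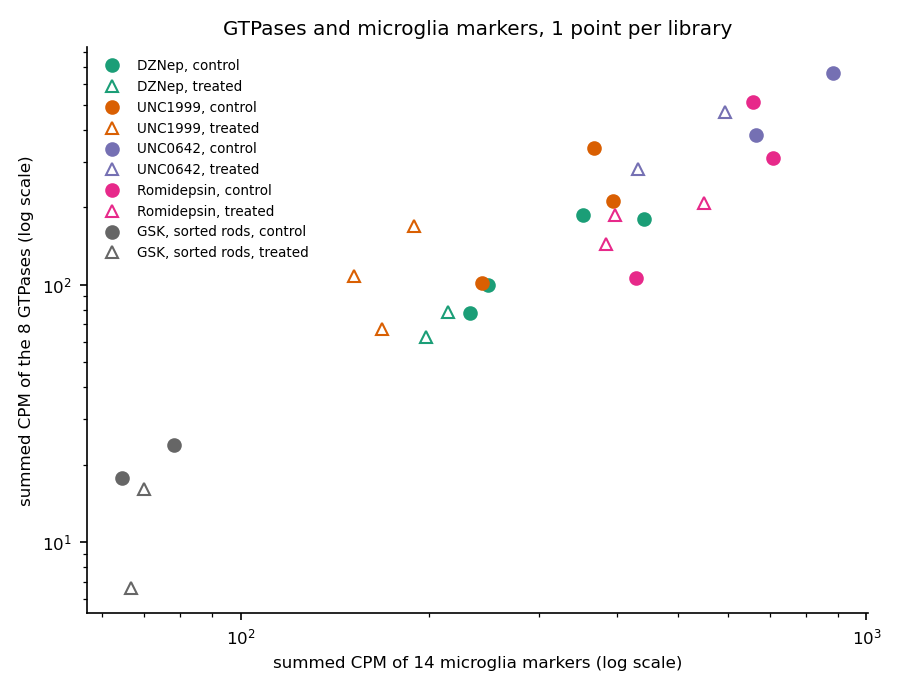
Summed CPM of the 14 microglia markers (x, log scale) and of the 8 GTPases (y, log scale), 1 point per library, with colours for the experiment, filled circles for controls and open triangles for treated libraries. The 4 libraries of sorted rods lie at 64.6 to 78.2 CPM of microglia markers and 6.66 to 23.9 CPM of GTPases, below all 22 retinas on both axes.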

How the data were processed

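The authors trimmed reads with BBDuk, aligned them with HISAT2 2.2.1 to NCBIM37 (mm9, Ensembl release 67) and counted them per gene with HTSeq 0.11.2. Whether counting used strand is not given in the sources used here. The deposited table holds unnormalized read counts for 37991 Ensembl genes and 26 libraries, and all were used. Symbols were matched for 37205 genes, and lengths came from GENCODE M1 on the same build. No replicates were copies: over 23 pairs, chi-square divided by the number of genes did not go below 3.89.

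Each treatment was compared with the controls of its own experiment in edgeR 4.0.16 (R 4.3.3) with filterByExpr, TMM factors and the quasi-likelihood test with Benjamini-Hochberg adjustment; the study's own likelihood ratio test was an alternative. SE is the log2 fold change divided by the root of F. Further alternatives were DESeq2 1.42.0, RLE factors, library totals alone, no filter, at least 10 counts in every library, a fold threshold, a replicate block, 1 fit of the 22 retinas and leaving out each library. Groups came from the sample titles. In part of the other labels the number that ends the genotype or follows UNC rises by 1 from library to library, and these were read as rd10 and UNC1999. Likeness used log2 CPM with a prior count of 2 for genes with a mean of at least 1 CPM. The 8 genes were all named, as were every tested gene of the other family GTPases, up to 3 genes of each further pathway list with the smallest adjusted p under 0.05 in each direction, Ifng, Irf1, Jak2 and Socs1, and the 5 most alike genes. A further gene of this rule is not reported here. Members and lists were chosen with earlier results of these data known. P-values weigh each difference against the spread between the samples. The tests were tested on simulated data. Same-numbered control and treated libraries did not deviate together in every pair (correlations -0.39 to 0.29), so the numbers were not taken as pairs.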

Additional observations from a re-analysis of the deposited data

How the results depend on the processing

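Log2 fold changes of the 8 GTPases kept their sign in the DZNep and UNC1999 experiments under all alternatives, and few libraries decided the calls. After DZNep 2 genes were called lower, with 1 when a log2 fold change under -1 was also required, 4 by the likelihood ratio test (9.52% of all genes called lower), 5 without a filter (7.08%), 0 in the fit of all 22 retinas (2.14%) and 0 to 7 when a library was left out (1.67% to 13.3%). After UNC1999 the likelihood ratio test called 1 (5.08%) and leaving out a library 0 to 4 (0% to 8.50%). After UNC0642 no filter gave 3 calls (2.63% of all genes, against 0%), and without 1 library the log2 fold changes ran from -0.65 to 0.11 (Igtp), -0.92 to 0.14 (Irgm1) and -0.57 to 0.25 (Iigp1). After Romidepsin DESeq2 and the likelihood ratio test called 1 each (3.04% and 3.29%) and leaving out a library 0 to 2 (0% to 1.14%), with ranges of -0.70 to 0.24 (Igtp) and -0.73 to 0.74 (Iigp1). In sorted rods the likelihood ratio test and no filter called 1 each (Irgm1; 0.173% and 0.204%), the median of the tested genes was -0.29 and moved to -1.16 with at least 10 counts in every library, where fewer genes were tested, and to between -1.72 and -0.16 without 1 library. Irgm2 then ran from -1.72 to 0.99, Gbp3 from -1.10 to 0.54 and Gbp7 from -0.70 to 0.205. Where not stated, the cause was not tested.

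With the replicate block, 8 genes were called after DZNep (3.01% of all genes) and 5 after UNC0642 (2.11%), and 0 in the other 3 experiments, while Iigp1 after Romidepsin turned to 0.25 and Irgm2 in rods to -0.16. The numbers were not shown to pair the samples. Crossed replicate numbers in the rods, added after the correlation between same-numbered libraries (-0.11) was seen, gave 0 calls, with Irgm2 at -0.081. Library totals alone shifted the median of all genes to -0.12 (DZNep) and -0.11 (UNC1999) and changed no call of the 8 genes. In sorted rods the 2 to 183 counts per tested gene limit what could be detected. Over all genes edgeR's quasi-likelihood test called 95 after UNC1999 and 120 after Romidepsin, compared with 1641 and 1185 by the likelihood ratio test and 1459 and 1074 by DESeq2.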
